A study of Arabidopsis thaliana with 36 samples.

Results

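Aliphatic glucosinolates are sulfur-rich defence compounds that Arabidopsis and its relatives make from methionine. Chain elongation first lengthens the amino acid, the core pathway then turns it into a glucosinolate, and side-chain enzymes modify the product. MYB28 and MYB29 are the transcription factors best known for switching this pathway on, and MYC-type factors act with them. The 9 genes described here were chosen by locus from that pathway and are 9 of the 37336 loci in the count tables. They are the regulators MYB28 (AT5G61420) and MYB29 (AT5G07690), the chain-elongation genes MAM1 (AT5G23010) and BCAT4 (AT3G19710), the core genes CYP79F1 (AT1G16410), CYP83A1 (AT4G13770), SOT17 (AT1G18590) and SOT18 (AT1G74090), and the side-chain gene FMO GS-OX1 (AT1G65860).

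The study measured messenger RNA by sequencing from the 3' end of transcripts in whole 12-day-old Arabidopsis thaliana seedlings that carried mutations in the unfolded protein response. That response senses misfolded protein in the endoplasmic reticulum. In plants, the proteases S1P and S2P release the transcription factors bZIP28 and bZIP17 from membranes, while bZIP60 is switched on by splicing of its mRNA. The 4 double mutants were labelled bzip17/28, bzip28/60, bzip17/60 and s1p/s2p, each described as a double knockout, and were compared with wild type (WT). Seedlings of every genotype received tunicamycin (Tm, 5 µg/ml, which blocks N-glycosylation) or mock for 6 h. WT seedlings also received dithiothreitol (DTT, 2 mM, a reducing agent) or azetidine-2-carboxylate (AZC, 5 mM, a proline analogue). All seedlings were soaked in water with the chemical, and mock seedlings had the DMSO solvent. Each of the 12 groups had 3 libraries, numbered as repeats. The labels name no allele, accession or batch, so any batch effect and the effect of a genotype cannot be told apart. Nothing states that the repeats came from separate cultures, and p-values here cover only the spread among libraries, part of which may be technical.

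The 36 libraries held 1278322 to 2810235 counts assigned to a gene, with a median of 2011039. Libraries of bzip17/28 and bzip17/60 seedlings held 0 to 3 counts of BZIP17. BZIP28 had 0 to 1 counts in bzip17/28, but still 23 to 30 counts in bzip28/60, where it averaged 11.3 CPM in mock seedlings, against 24.4 CPM in WT mock (CPM are counts scaled to library size). BZIP60 averaged 32.9 CPM in bzip28/60 mock and 29.8 CPM in bzip17/60 mock, against 124 CPM in WT mock. S1P and S2P had 0 or 1 counts in every library, so their counts check no label. Leaf markers such as LHCB1.3 and root markers such as PYK10 were both present. The 3 WT Tm libraries stood apart from one another more than those of any other group: their pairs differed by a chi-square over degrees of freedom of 8.95 to 12.1, against at most 5.8 in the other groups. Each Tm comparison in WT and each difference from the WT response rests on them. In whole seedlings, fewer cells of a type and less RNA per cell cannot be told apart.

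Of the 9 genes, 6 passed the filter on low counts and were tested. MYB28, MYB29 and MAM1 did not pass. MYB28 had 3 counts over all 36 libraries and at most 1 in any library. MYB29 had 31 counts in all and at most 5 in any library. MAM1, the methylthioalkylmalate synthase that adds the elongating carbon, had 22 counts and at most 4. MYB28 is split into 2 transcript models and MAM1 into 3, and reads shared by models were left out of the counts, so these totals are floors on the reads present and not measures of silence. MYB29 has 1 model. Nothing is said here about a change in these genes. The filter asked for any 3 libraries over a minimum of 4.97 CPM. FMO GS-OX1 was over it in 11 libraries, and only in the bzip17/28 groups were all 3 libraries over it. Its differences from bzip17/28 mock are given as a description, and counts in those comparisons are over the other 5 genes. CYP79F1 has 2 models, and 842 of its 843 counts fell on model 1. CYP79F1 also had all 3 libraries over the minimum in 5 of the 12 groups.

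The sequences just before the start of 3 core genes are printed here. They are the 300 bases before the annotated start, read on the strand of the gene from RefSeq TAIR10.1 by locus tag, at chr1:5608382-5608681 on the plus strand for CYP79F1, chr4:7992430-7992729 on the minus strand for CYP83A1, and chr1:6398231-6398530 on the plus strand for SOT17. CYP79F1 is shown because its level varied most, and CYP83A1 and SOT17 because they hold the letters searched for. Capitals mark matches to CACGTG, the G-box that MYC factors are known to bind, and to ACCNACC and ACCNAAC, AC elements that MYB factors are known to bind.
CYP79F1: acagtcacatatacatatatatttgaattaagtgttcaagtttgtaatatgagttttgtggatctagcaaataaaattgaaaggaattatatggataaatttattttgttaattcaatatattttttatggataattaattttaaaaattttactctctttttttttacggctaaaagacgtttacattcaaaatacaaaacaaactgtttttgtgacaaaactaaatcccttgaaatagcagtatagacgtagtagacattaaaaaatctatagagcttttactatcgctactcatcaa
CYP83A1: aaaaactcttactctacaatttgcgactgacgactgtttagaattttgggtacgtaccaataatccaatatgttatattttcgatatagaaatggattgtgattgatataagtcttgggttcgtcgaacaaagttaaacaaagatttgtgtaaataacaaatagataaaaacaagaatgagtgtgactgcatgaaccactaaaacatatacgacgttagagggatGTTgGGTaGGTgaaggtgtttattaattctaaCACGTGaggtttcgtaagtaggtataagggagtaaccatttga
SOT17: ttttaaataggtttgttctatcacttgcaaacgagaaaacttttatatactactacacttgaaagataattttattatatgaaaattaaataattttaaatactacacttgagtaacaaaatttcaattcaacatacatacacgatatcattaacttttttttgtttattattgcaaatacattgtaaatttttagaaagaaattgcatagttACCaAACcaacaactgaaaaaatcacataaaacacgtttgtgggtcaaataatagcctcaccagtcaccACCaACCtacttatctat
Both strands were searched in all 9 windows and in the windows of 27443 protein-coding genes. CACGTG stood in the window of 1 of the 9 genes, CYP83A1, between 43 and 38 bases before the start, and in 7.09% of all windows. ACCNACC stood in CYP83A1 and SOT17 and in 7.08% of all windows. ACCNAAC stood in CYP83A1, SOT17 and FMO GS-OX1 and in 16.8% of all windows, and in CYP83A1 it overlaps the ACCNACC match. The sulfur-responsive core GAGAC stood in MYB29 alone among the 9, and in 30% of all windows. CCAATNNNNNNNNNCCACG, the ERSE-I element of unfolded protein response genes, stood in 0 of the 9 windows and in 0.332% of all windows. A match is only a run of letters, and a window without one says nothing about the factor.

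BCAT4, the aminotransferase that starts chain elongation from methionine, had the narrowest range over the 12 groups. Its highest group mean, in bzip17/28 Tm seedlings, was 2.37 times its lowest, in WT DTT seedlings. Among the core genes, CYP79F1, the cytochrome P450 that converts elongated methionine to an aldoxime, had the widest range: its highest mean, in bzip17/28 mock, was 61.1 times its lowest, in bzip17/60 Tm, where only 4 counts stood behind the 3 libraries. CYP83A1, the next P450 of the core pathway, spanned 4.05 times. The sulfotransferases SOT17 and SOT18, which add sulfate in the last core step, spanned 2.51 and 2.58 times. FMO GS-OX1, a flavin monooxygenase that oxidises the side chain, spanned 9.16 times. The highest mean lay in bzip17/28 mock for CYP79F1, CYP83A1, SOT17 and SOT18. FMO GS-OX1 was also highest there, which is a description, since only the bzip17/28 groups had all 3 libraries over the filter minimum.

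Between those ends most groups next to each other in order overlapped. With 3 libraries per group, overlap of neighbours does not show that levels were continuous. Placed in order of mean, neighbouring groups of BCAT4, CYP83A1 and SOT17 overlapped in all 11 pairs of neighbours. CYP79F1 had 2 pairs of neighbours that did not overlap, at the top and the bottom of its order, and SOT18 and FMO GS-OX1 had 1 each. The genes also shared single high libraries: repeat 2 of s1p/s2p mock, repeat 3 of WT mock and repeat 2 of WT Tm were the highest of their groups for 6 of 6 genes. In the other groups the 6 genes were not all highest in the same library. Among the pairs of genes, CYP83A1 and SOT18 were most often highest in the same library, in 11 of 12 groups, and CYP79F1 and SOT18 in 10. The lowest count was 4 groups, for CYP83A1 with SOT17 and with FMO GS-OX1. Such sharing was not counted over all genes. In the plot of single libraries those shared high points are visible in the s1p/s2p mock and WT mock columns.

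**Figure D1:**
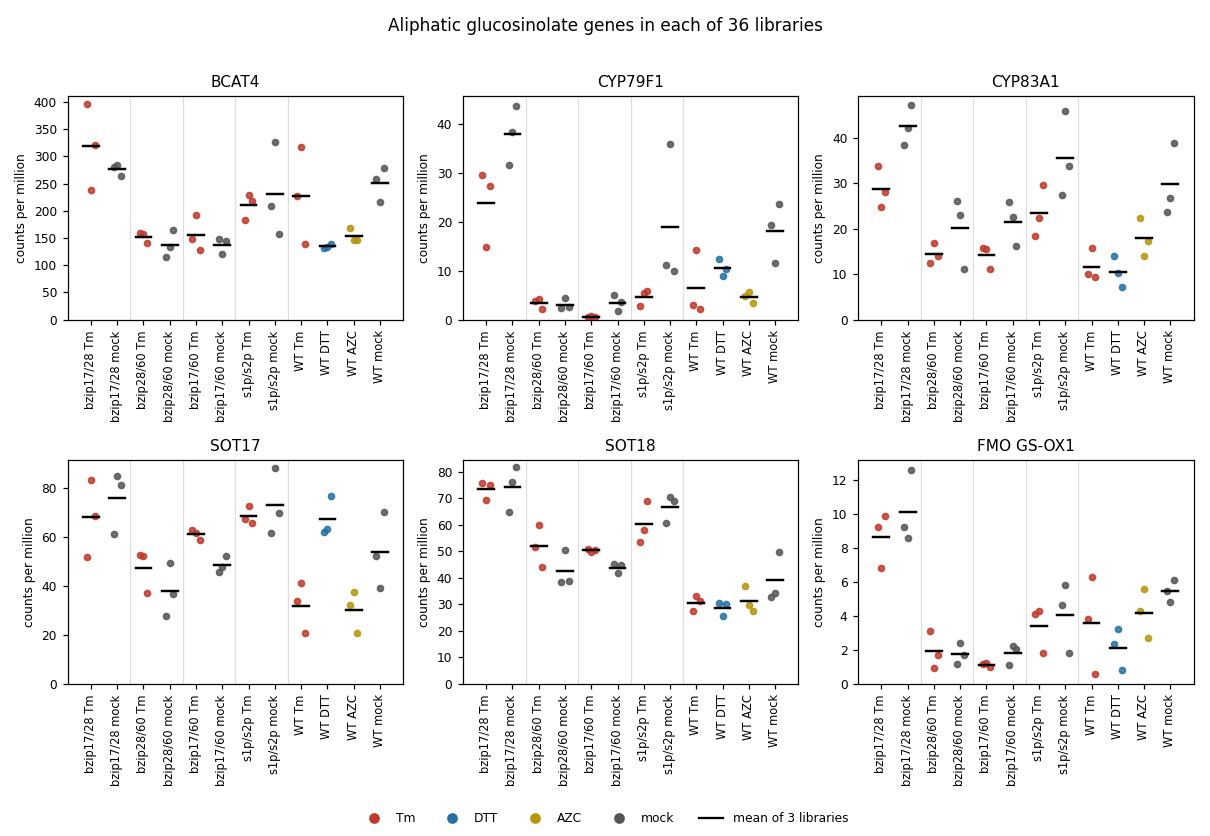
CPM of the 6 tested genes in each of the 36 libraries, with the vertical axis from 0 in every panel; points are libraries coloured by treatment and bars are means of 3 libraries. CYP79F1 reaches 31.7 to 43.7 CPM in bzip17/28 mock and stays between 2.33 and 4.34 CPM in bzip28/60 mock.

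The mutants without treatment separated these genes most clearly. In mock-treated seedlings BCAT4, CYP79F1, CYP83A1, SOT17 and SOT18, 5 of 5 genes, were higher in bzip17/28 than in bzip28/60. For each of them every bzip17/28 library lay above every bzip28/60 library, and the share of all genes so separated was not counted. Over all genes 12.7% were called in this comparison (edgeR quasi-likelihood test, Benjamini-Hochberg adjusted p under 0.05), and the median log2 difference was 1.01 for the 5 genes against -0.02 for all 10480 genes tested. Leaf markers also differed: their sum was 15349 to 16563 CPM in bzip17/28 mock, against 18980 to 19272 CPM in bzip28/60 mock and 22234 to 23279 CPM in WT mock. Of 6 leaf markers tested, LHCB5 was lower in bzip17/28 than in bzip28/60 (log2 -0.47, edgeR adjusted p = 0.00762) and RBCS1B was higher (log2 1.59, edgeR adjusted p = 0.0374). Root markers had 0 of 7 called by edgeR, with a sum of 797 to 822 CPM in bzip17/28 mock, against 697 to 950 CPM in bzip28/60 mock. Most of this sum can be 1 gene: in WT mock PYK10 averaged 571 CPM of a mean sum of 693 CPM. The part of the leaf and root markers in the gene differences was not tested.

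CYP79F1 had 31.7, 38.5 and 43.7 CPM in bzip17/28 mock, against 2.33, 4.34 and 2.50 CPM in bzip28/60 mock. The lowest bzip17/28 library was far above the highest bzip28/60 library. The log2 difference was 3.64 ± 0.42 (SE, n = 3 per group), a 12.5-fold difference, with an edgeR adjusted p of 1.76e-08. BCAT4 had 281, 284 and 264 CPM in bzip17/28 mock, against 115, 133 and 165 CPM in bzip28/60 mock. Again the groups did not overlap, and the bzip17/28 libraries were close to each other. Its log2 difference was 1.01 ± 0.21 (edgeR adjusted p = 0.000419).

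CYP83A1 had 38.3, 42.2 and 47.2 CPM in bzip17/28 mock, against 26.1, 23.1 and 11.2 CPM in bzip28/60 mock. Repeat 3 of bzip28/60 was the low one, and the groups did not overlap. The log2 difference was 1.08 ± 0.24 (edgeR adjusted p = 0.000889). Of the sulfotransferases, SOT17 had 61.2, 84.8 and 80.9 CPM in bzip17/28 mock, against 27.6, 49.2 and 36.6 CPM in bzip28/60 mock, a log2 difference of 1.01 ± 0.21 (edgeR adjusted p = 0.000421). SOT18 had 64.8, 76.2 and 81.8 CPM in bzip17/28 mock, against 38.5, 50.6 and 38.7 CPM in bzip28/60 mock, a log2 difference of 0.81 ± 0.15 (edgeR adjusted p = 9.79e-05). For both, the libraries of the mutants stayed apart. FMO GS-OX1 had 9.25, 8.60 and 12.6 CPM in bzip17/28 mock, against 1.17, 2.41 and 1.67 CPM in bzip28/60 mock, where 12 counts stood behind the 3 libraries. It was 2.52 higher on the log2 scale, which is given as a description. The calls of the other 5 genes held in each of the 8 other settings tried and without each library in turn.

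Against WT mock, the genes called in bzip17/28 were higher and those called in bzip28/60 were lower, and fewer genes passed the test. These comparisons share the 3 WT mock libraries. In bzip17/28 mock, CYP79F1 and SOT18 were higher than in WT mock, 2 of 5 genes, against 18.1% of all genes tested called. Of the leaf markers, LHCB1.3 and LHCB2.1 were lower there than in WT mock (log2 -0.68, edgeR adjusted p = 0.000329, and -0.45, edgeR adjusted p = 0.00326) and RBCS1A was higher, and their part was not tested. CYP79F1 had the values above in bzip17/28, against 19.3, 11.7 and 23.8 CPM in WT mock, with no overlap and a log2 difference of 1.03 ± 0.33 (edgeR adjusted p = 0.0238). Its call was lost with DESeq2 (adjusted p = 0.0904) and without any 1 of 4 libraries, repeats 2 and 3 of bzip17/28 mock and repeats 1 and 2 of WT mock (log2 0.81 to 1.06, edgeR adjusted p 0.0551 to 0.127). SOT18 had the values above, against 32.7, 34.4 and 49.9 CPM in WT mock. The bzip17/28 libraries were all higher, with a log2 difference of 0.92 ± 0.16 (edgeR adjusted p = 4.13e-05). BCAT4 differed by 0.14 on the log2 scale, with a 95% interval of -0.28 to 0.56, and SOT17 by 0.48, with an interval of 0.05 to 0.91 (edgeR adjusted p = 0.104). SOT17 was called without repeat 3 of WT mock (log2 0.72, edgeR adjusted p = 0.0330), with library size alone (log2 0.59, adjusted p = 0.0438) and with no filter (log2 0.52, adjusted p = 0.0443).

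In bzip28/60 mock, BCAT4 and CYP79F1 were lower than in WT mock, 2 of 6 genes, against 5.35% of all genes called. BCAT4 had 115, 133 and 165 CPM in bzip28/60 mock, against 258, 217 and 278 CPM in WT mock. The groups did not overlap, and the log2 difference was -0.87 ± 0.21 (edgeR adjusted p = 0.00901), which was lost without repeat 1 of bzip28/60 mock (log2 -0.75, edgeR adjusted p = 0.0768). CYP79F1 differed by -2.61 ± 0.48 on the log2 scale (edgeR adjusted p = 0.000761), and every bzip28/60 library lay under every WT library. FMO GS-OX1 differed by -1.65 ± 0.52 without passing (edgeR adjusted p = 0.0508), while limma with weights per group called it (log2 -1.64, adjusted p = 0.0350). Its bzip28/60 and WT libraries did not overlap either, with 5.44, 4.81 and 6.10 CPM in WT mock.

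In bzip17/60 mock, BCAT4 and CYP79F1 were also lower than in WT mock, 2 of 6 genes, against 8.31% of all genes called. BCAT4 had 149, 120 and 145 CPM in bzip17/60 mock, all under the WT mock libraries, with a log2 difference of -0.86 ± 0.21 (edgeR adjusted p = 0.00672) that was lost without repeat 2 of bzip17/60 mock (log2 -0.77, edgeR adjusted p = 0.0618). CYP79F1 had 4.96, 1.77 and 3.55 CPM in bzip17/60 mock, also all under WT, with a log2 difference of -2.46 ± 0.49 (edgeR adjusted p = 0.000893). Set directly against bzip28/60 mock, bzip17/60 mock had 0 of 6 genes called by edgeR, 0 at an unadjusted p under 0.05 and 0 by DESeq2 or limma, with 0.200% of all genes called. The 95% interval of that log2 difference was -0.43 to 0.44 for BCAT4 and -1.18 to 1.48 for CYP79F1, so a sizeable difference in CYP79F1 is still within the error.

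In s1p/s2p mock, SOT18 alone was called against WT mock, with 7.39% of all genes called. SOT18 had 60.8, 70.7 and 68.9 CPM in s1p/s2p mock, against 32.7, 34.4 and 49.9 CPM in WT mock. All s1p/s2p libraries were higher, with a log2 difference of 0.77 ± 0.16 (edgeR adjusted p = 0.00183). CYP79F1 had 11.3, 35.9 and 9.91 CPM in s1p/s2p mock, where repeat 2 stood far above the others, and its log2 difference from WT mock was -0.01 with a 95% interval of -0.75 to 0.73. Root markers were lower in s1p/s2p mock than in WT mock for 3 of 7 tested, with a summed level of 501 to 571 CPM in s1p/s2p mock, against 651 to 770 CPM in WT mock. Without any 1 library of either group 1 of the 7 was lower, PHT1;1, and their part in these values was not tested.

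Against bzip17/28 mock, s1p/s2p mock had CYP79F1 lower, 1 of 5 genes, with 10.2% of all genes called. CYP79F1 differed by -1.04 ± 0.32 on the log2 scale (edgeR adjusted p = 0.0290), although repeat 2 of s1p/s2p lay inside the bzip17/28 range. FMO GS-OX1 had 4.64, 5.79 and 1.80 CPM in s1p/s2p mock, all under bzip17/28, a difference of -1.35 on the log2 scale that is given without its test. DESeq2 did not call CYP79F1 (adjusted p = 0.149). Its call was also lost without repeat 1 or 3 of s1p/s2p mock (log2 -0.77 and -0.71, edgeR adjusted p = 0.180 and 0.242) or repeat 2 or 3 of bzip17/28 mock (log2 -1.04 and -0.93, edgeR adjusted p = 0.0768 and 0.119). The root marker sum was 501 to 571 CPM in s1p/s2p mock, against 797 to 822 CPM in bzip17/28 mock, with 6 of 7 markers lower. Its part in the difference was not tested.

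**Figure D2:**
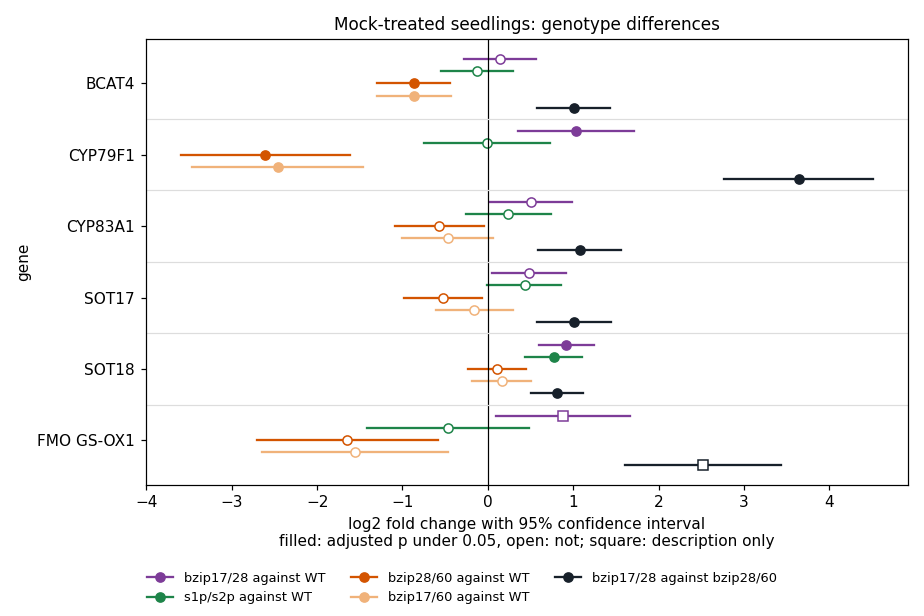
Log2 fold change of each tested gene between mock-treated genotypes, with 95% confidence intervals on the horizontal axis. Filled points have an adjusted p under 0.05, and squares are FMO GS-OX1 values of bzip17/28, shown as a description. For bzip17/28 against bzip28/60 the points of the other 5 genes are filled and lie between 0.81 and 3.64.

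In WT seedlings, each inducer lowered 2 or 3 of the 6 tested genes. The 3 comparisons share the 3 WT mock libraries. After Tm, CYP79F1, CYP83A1 and SOT17 fell, 3 of 6 genes, against 16.9% of all genes called. The median log2 difference was -0.77 for the 6 genes and 0.03 for all genes. CYP83A1 had 9.97, 15.7 and 9.32 CPM after Tm, against 23.6, 26.8 and 38.8 CPM in WT mock. All Tm libraries were lower, with a log2 difference of -1.38 ± 0.30 (edgeR adjusted p = 0.00120). limma with weights per group called none of the 6 genes (adjusted p = 0.0930 for CYP83A1). Of 7 root markers, PYK10 and CASP4 were lower after Tm (log2 -0.99, edgeR adjusted p = 3.87e-05, and -2.50, edgeR adjusted p = 0.00549). The root marker sum was 331 to 490 CPM after Tm, against 651 to 770 CPM in WT mock. PYK10 made up most of it, with means of 287 CPM after Tm and 571 CPM in WT mock. The other markers tested were not called, CASP1 among them (log2 0.46, edgeR adjusted p = 0.333). The part of the root markers in the fall of these genes was not tested.

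CYP79F1 had 3.07, 14.2 and 2.19 CPM after Tm, against 19.3, 11.7 and 23.8 CPM in WT mock. Repeat 2 of Tm lay inside the mock range, and the Tm libraries held 26 counts in all. The log2 difference was -1.62 ± 0.47 (edgeR adjusted p = 0.0136). It was not called without repeat 3 of WT mock (log2 -1.38, edgeR adjusted p = 0.0707) or repeat 3 of WT Tm (log2 -1.12, edgeR adjusted p = 0.127), and without repeat 2 of WT Tm it was -2.84. SOT17 had 33.7, 40.9 and 20.8 CPM after Tm, against 52.0, 39.2 and 69.9 CPM in WT mock. The groups overlapped slightly, and the log2 difference was -0.80 ± 0.24 (edgeR adjusted p = 0.0173). That call too was lost without repeat 3 of WT mock (log2 -0.56, edgeR adjusted p = 0.149) or repeat 3 of WT Tm (log2 -0.54, edgeR adjusted p = 0.159). BCAT4 differed by -0.15 on the log2 scale, with a 95% interval of -0.58 to 0.28.

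After DTT, BCAT4 and CYP83A1 fell, 2 of 6 genes, against 16.0% of all genes called. BCAT4 had 131, 134 and 139 CPM after DTT, against 258, 217 and 278 CPM in WT mock. The DTT libraries were nearly level and well under mock, with a log2 difference of -0.90 ± 0.21 (edgeR adjusted p = 0.00195). CYP83A1 had 14.1, 10.3 and 7.10 CPM after DTT, also all under mock, with a log2 difference of -1.47 ± 0.30 (edgeR adjusted p = 0.000370). SOT17 had 61.9, 63.0 and 76.6 CPM after DTT, which overlapped the mock libraries, and its log2 difference was 0.30 with a 95% interval of -0.15 to 0.75. SOT18 and FMO GS-OX1 did not overlap with mock and did not pass (log2 -0.45 ± 0.18, edgeR adjusted p = 0.0901, and -1.29 ± 0.54, edgeR adjusted p = 0.106). Without repeat 1 of WT mock SOT18 was called (log2 -0.57, edgeR adjusted p = 0.0442). Root markers fell with DTT: 7 of 7 tested were lower, 4 when only these libraries were fitted, and their sum was 99.4 to 157 CPM after DTT, against 651 to 770 CPM in WT mock. Their part in the fall of BCAT4 and CYP83A1 was not tested.

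After AZC, BCAT4, CYP79F1 and SOT17 fell, 3 of 6 genes, against 5.49% of all genes called. CYP79F1 had 4.81, 5.57 and 3.34 CPM after AZC, against 19.3, 11.7 and 23.8 CPM in WT mock. The groups were well apart, with a log2 difference of -2.01 ± 0.48 (edgeR adjusted p = 0.00616). SOT17 had 32.1, 37.6 and 20.7 CPM after AZC, all under mock, with a log2 difference of -0.84 ± 0.24 (edgeR adjusted p = 0.0240). BCAT4 had 168, 146 and 146 CPM after AZC, all under mock, with a log2 difference of -0.71 ± 0.21 (edgeR adjusted p = 0.0355). Without repeat 3 of WT mock none of these was called (CYP79F1 log2 -1.76, edgeR adjusted p = 0.0608; SOT17 -0.60, 0.259; BCAT4 -0.62, 0.162). BCAT4 was also lost without repeat 1 of WT mock or any 1 AZC library (log2 -0.67 to -0.78, edgeR adjusted p 0.0579 to 0.130), and SOT17 without repeat 1 or 3 of AZC (log2 -0.89 and -0.64, edgeR adjusted p = 0.0532 and 0.187). Root markers were lower for 6 of 7 after AZC, 3 when only these libraries were fitted, with a sum of 363 to 504 CPM, against 651 to 770 CPM in WT mock, and their part was not tested.

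**Figure D3:**
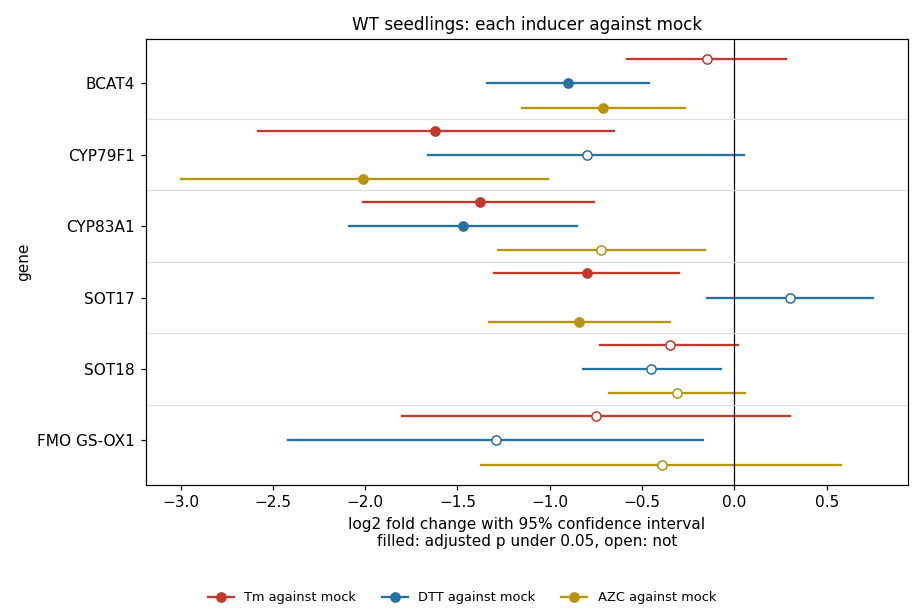
Log2 fold change of each tested gene in WT seedlings after Tm, DTT or AZC against mock, with 95% confidence intervals on the horizontal axis; filled points have an adjusted p under 0.05. SOT17 lies at -0.80 after Tm and -0.84 after AZC but at 0.30 after DTT.

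The inducers were also compared directly. With 6 genes, the counts called did not stand out from the share of all genes called, so single genes are described. Tm against DTT had 2 of 6 genes called, against 24.1% of all genes. SOT17 had 33.7, 40.9 and 20.8 CPM after Tm, against 61.9, 63.0 and 76.6 CPM after DTT. All Tm libraries were lower, with a log2 difference of -1.10 ± 0.24 (edgeR adjusted p = 0.000540). BCAT4 had 228, 317 and 139 CPM after Tm, against 131, 134 and 139 CPM after DTT, without overlap, although repeat 3 of Tm and repeat 3 of DTT round to the same value. Its log2 difference was 0.75 ± 0.22 (edgeR adjusted p = 0.00875). Without repeat 2 of Tm, BCAT4 lost the call (log2 0.41, edgeR adjusted p = 0.209) while CYP79F1 gained one (log2 -2.05, edgeR adjusted p = 0.0193; -0.81 with all libraries).

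DTT against AZC had SOT17 higher after DTT by 1.15 ± 0.23 on the log2 scale (edgeR adjusted p = 0.000366), 1 of 6 genes against 17.5% of all genes. The 61.9 to 76.6 CPM after DTT lay above the 20.7 to 37.6 CPM after AZC. CYP79F1 did not overlap either, with 12.4, 8.99 and 10.3 CPM after DTT, against 4.81, 5.57 and 3.34 CPM after AZC, but did not pass (log2 1.20 ± 0.54, edgeR adjusted p = 0.125). Tm against AZC had 0 of 6 genes called by edgeR, with 2 at an unadjusted p under 0.05 and 0 by DESeq2 and limma, against 18.5% of all genes. The intervals of the Tm against AZC difference were -0.49 to 0.58 for SOT17 and -0.87 to 1.65 for CYP79F1. BCAT4 differed by 0.56 ± 0.21 (edgeR adjusted p = 0.0604) and was called without repeat 3 of Tm (log2 0.82, edgeR adjusted p = 0.00380).

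In the mutants, Tm left most of these genes without a call. edgeR called 0 of 6 genes in bzip17/28, with 2 at an unadjusted p under 0.05, 0 by DESeq2 and 2 by limma, against 11.6% of all genes. CYP79F1 had 29.6, 14.8 and 27.3 CPM in bzip17/28 Tm, against 31.7, 38.5 and 43.7 CPM in bzip17/28 mock. Those groups did not overlap, but the log2 difference of -0.67 ± 0.30 did not pass (edgeR adjusted p = 0.161). CYP83A1 had 33.8, 24.7 and 28.0 CPM in bzip17/28 Tm, all under mock, with -0.57 ± 0.22 (edgeR adjusted p = 0.0974). These are the genes that limma with weights per group called, with adjusted p = 0.0203 for CYP79F1 and 0.0340 for CYP83A1.

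In bzip28/60, edgeR called 0 of 6 genes after Tm, with 0 at an unadjusted p under 0.05 and 0 by DESeq2 or limma, against 2.42% of all genes. CYP79F1 had 3.87, 4.19 and 2.11 CPM in bzip28/60 Tm, against 2.33, 4.34 and 2.50 CPM in bzip28/60 mock. The groups overlapped fully, and the 95% interval of the log2 difference was -1.11 to 1.45. In bzip17/60, edgeR called 0 of 6, with 2 at an unadjusted p under 0.05 and 0 by DESeq2 and limma, against 3.20% of all genes. CYP79F1 had 0.565, 0.817 and 0.482 CPM in bzip17/60 Tm, from 1, 2 and 1 counts, against 4.96, 1.77 and 3.55 CPM in bzip17/60 mock. The log2 difference was -2.28 ± 0.92 and did not pass (edgeR adjusted p = 0.230), except when no filter on low counts was used (adjusted p = 0.0394).

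In s1p/s2p, Tm lowered CYP79F1, 1 of 6 genes against 3.60% of all genes. CYP79F1 had 2.74, 5.49 and 5.94 CPM in s1p/s2p Tm, against 11.3, 35.9 and 9.91 CPM in s1p/s2p mock. The groups did not overlap, and the log2 difference was -1.97 ± 0.44 (edgeR adjusted p = 0.00361). Without the high repeat 2 of s1p/s2p mock it was -1.18 and was not called (edgeR adjusted p = 0.240). Root markers were lower after Tm for 3 of 7 tested in s1p/s2p, with a sum of 178 to 208 CPM in s1p/s2p Tm, against 501 to 571 CPM in s1p/s2p mock. PYK10 stayed lower without each library in turn, while CASP1 and PHT1;1 did not without some, and 1 to 3 were lower in all. Their part was not tested.

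The size of the Tm response was then compared between each mutant and WT. SOT17 responded differently in bzip28/60 and in bzip17/60, by 1.13 ± 0.32 on the log2 scale in each (edgeR adjusted p = 0.0344 and 0.0359), with 4.26% and 3.79% of all genes called. SOT17 had 52.6, 52.1 and 37.1 CPM in bzip28/60 Tm, against 27.6, 49.2 and 36.6 CPM in bzip28/60 mock, and 62.7, 61.3 and 58.8 CPM in bzip17/60 Tm, against 45.7, 47.5 and 52.3 CPM in bzip17/60 mock. In both mutants SOT17 was not called after Tm (log2 0.33, edgeR adjusted p = 0.635 and 0.588), whereas in WT it fell by 0.80 on the log2 scale. Both differences rest on the same 6 WT libraries. They were lost when only their own libraries were fitted (adjusted p = 0.146 and 0.139) and without any 1 of 7 libraries for bzip28/60 and 8 of 12 for bzip17/60, among them repeats 1 and 3 of WT mock and repeat 3 of WT Tm (log2 0.87 to 1.19, edgeR adjusted p 0.0526 to 0.125). For bzip28/60 those libraries were also repeats 1 and 3 of its mock and repeats 1 and 2 of its Tm group, and for bzip17/60 repeats 1, 2 and 3 of its mock and repeats 1 and 3 of its Tm group.

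For the other mutants, edgeR called 0 of 6 response differences: 2 at an unadjusted p under 0.05 in bzip17/28 and 1 in s1p/s2p, and 0 by DESeq2 and limma in both. All genes were called at 4.14% and 1.90%. CYP79F1 differed in response by 0.94 in bzip17/28 (95% interval -0.22 to 2.11), 1.79 in bzip28/60 (0.15 to 3.43, edgeR adjusted p = 0.200), -0.66 in bzip17/60 (-2.77 to 1.44) and -0.35 in s1p/s2p (-1.75 to 1.05). Without repeat 2 of WT Tm, CYP79F1 was called in bzip28/60 (log2 3.01, edgeR adjusted p = 0.0452). CYP83A1 differed by 0.77 to 0.89 in the 4 mutants without a call.

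**Figure D4:**
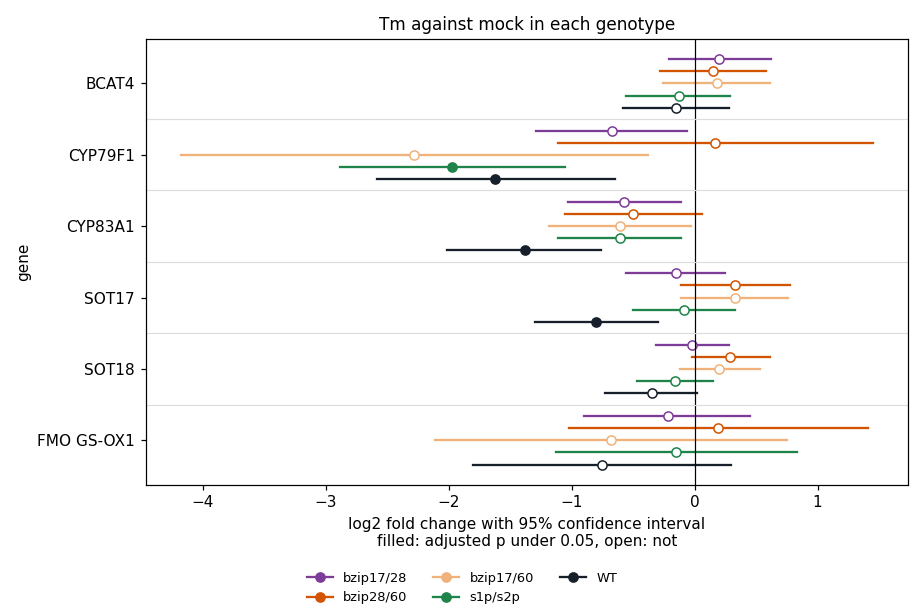
Log2 fold change of each tested gene after Tm against mock within each genotype, with 95% confidence intervals on the horizontal axis; filled points have an adjusted p under 0.05. SOT17 lies at -0.80 in WT and at 0.33 in both bzip28/60 and bzip17/60.

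The known partners and the rest of the pathway were measured beside the 9 genes. Among 4 other regulators, 3 were tested, and MYB76 had 0 counts. MYC2, a MYC factor that acts with the MYB regulators, was higher in bzip17/28 mock, with 242 ± 20.9 CPM (SD, n = 3), than in WT mock, with 96.8 ± 9.32 CPM, by 1.32 ± 0.14 on the log2 scale (edgeR adjusted p = 9.16e-09). It averaged 55.5 ± 4.94 CPM in bzip28/60 mock, lower than WT by -0.81 ± 0.15 on the log2 scale (edgeR adjusted p = 0.000895), and 60.9 ± 3.88 CPM in bzip17/60 mock, lower by -0.67 ± 0.15 (edgeR adjusted p = 0.00336). bzip17/28 mock exceeded bzip28/60 mock by 2.12 ± 0.14 (edgeR adjusted p = 2.59e-14). MYC2 was thus high and low in the same mutants as CYP79F1. The other 2 MYC factors tested did not share this. Between bzip17/28 mock and bzip28/60 mock, MYC3 differed by 0.19 and MYC4 by -0.50 on the log2 scale (edgeR adjusted p = 0.463 and 0.143). MYC4 was higher in s1p/s2p mock than in bzip17/28 mock, by 0.77 ± 0.22 (edgeR adjusted p = 0.0166).

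After Tm and AZC, MYC2 was lower, as was CYP79F1, and after DTT it was higher. MYC2 averaged 51.2 ± 0.175 CPM after Tm and 66.5 ± 8.64 CPM after AZC, both lower than 96.8 ± 9.32 CPM in WT mock (log2 -0.92, edgeR adjusted p = 6.33e-05, and -0.55, edgeR adjusted p = 0.0222). The AZC call was lost without repeat 1 or 2 of AZC or repeat 1 or 3 of WT mock (log2 -0.66 to -0.46 over all left-out libraries, edgeR adjusted p up to 0.147). After DTT it averaged 166 ± 26.3 CPM, higher than mock by 0.77 ± 0.14 (edgeR adjusted p = 9.02e-05), while BCAT4 and CYP83A1 fell. MYC2 overlaps AT1G32630 on the other strand, and the strand setting of the counting is not given in the sources used here.

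Of 19 other genes of aliphatic synthesis, 10 were tested. Between bzip17/28 mock and bzip28/60 mock, 5 were higher and 0 lower by edgeR, with 7.85% of all genes higher. The median log2 difference was 0.63 against -0.02 for all genes. Among them, GSTU20, a glutathione transferase of the core pathway, averaged 212 ± 37.9 CPM in bzip17/28 mock and 86.7 ± 15.1 CPM in bzip28/60 mock (log2 1.29 ± 0.22, edgeR adjusted p = 3.78e-05). AT2G25450, a 2-oxoglutarate-dependent oxygenase, averaged 666 ± 34.7 and 369 ± 16.2 CPM in those groups (log2 0.85 ± 0.15, edgeR adjusted p = 4.16e-05). AT2G31790, a UDP-glycosyltransferase, differed by 0.70 ± 0.14 (edgeR adjusted p = 0.000378). Against WT mock, 4 were higher in bzip17/28 and 2 in s1p/s2p, with 9.14% and 2.81% of all genes higher. In bzip28/60 1 was lower and in bzip17/60 2, with 3.59% and 4.77% of all genes lower. Without any 1 library these counts were 2 to 3, 0 to 2, 0 to 2 and 1 to 2. In bzip17/28 against WT, GSTU20 and AT2G31790 kept their calls without each library, IPMI1 lost its call without repeat 2 or 3 of bzip17/28 mock or repeat 1 or 2 of WT mock, and AT2G25450 without any 1 of the 6 libraries (log2 0.38 to 0.46, edgeR adjusted p up to 0.124). In s1p/s2p against WT, GSTU20 lost its call without repeat 2 of s1p/s2p mock (edgeR adjusted p = 0.108). IMS2, a chain-elongation synthase next to MAM1, was lower in bzip28/60 and bzip17/60 (log2 -0.51 ± 0.14, edgeR adjusted p = 0.0205, and -0.72 ± 0.14, edgeR adjusted p = 0.000729). The bzip28/60 call was lost without repeat 1 or 3 of bzip28/60 mock or repeat 1 or 3 of WT mock (log2 -0.56 to -0.45 over all left-out libraries, edgeR adjusted p up to 0.113).

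CYP79F2, the paralogue next to CYP79F1, was looked at for its relation to that gene and not for its values. It differed between bzip17/28 mock and bzip28/60 mock by 0.31 ± 0.27 on the log2 scale (edgeR adjusted p = 0.544), while CYP79F1 differed by 3.64. After Tm in WT it differed by -0.12 ± 0.30 (edgeR adjusted p = 0.826). After AZC in WT both paralogues were called lower, and both calls depended on single libraries. The difference between the paralogues was not itself tested. Their longest shared exact run in the last 500 bases of the transcripts was 9 bases, while SOT17 and SOT18 shared 19 and SOT18 and SOT16 shared 32.

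The inducers lowered further genes of aliphatic synthesis in WT. After DTT, 5 of the 10 other aliphatic genes tested fell and 0 rose, with 7.02% of all genes lower. Their median was -0.95 against -0.02 for all genes. IMS2 averaged 41.7 ± 5.74 CPM after DTT and 189 ± 14.1 CPM in WT mock (log2 -2.17 ± 0.16, edgeR adjusted p = 3.48e-14). The isopropylmalate isomerase subunits IPMI2 and IPMI1 fell by 1.75 and 1.73 on the log2 scale (edgeR adjusted p = 2.59e-08 and 0.000557). IMS2, IPMI2 and IPMI1 kept their calls without each library in turn, while the count was 3 to 7 lower, with 3 without repeat 3 of DTT. Other settings gave 5 to 7 lower and 0 to 2 higher. After Tm, 4 fell, with 8.25% of all genes lower, among them IPMI2 (log2 -0.96 ± 0.20, edgeR adjusted p = 0.000639). Without any 1 library of that comparison, 2 or 3 fell, and the other settings gave 0 to 4. After AZC, IPMI2 and CYP79F2 fell (log2 -0.85, edgeR adjusted p = 0.00359, and -1.29, edgeR adjusted p = 0.0129), with 2.20% of all genes lower. Without 1 library 0 to 3 fell: neither was called without repeat 3 of WT mock, IPMI2 was not called without repeat 2 of AZC and CYP79F2 not without repeat 3 of AZC (edgeR adjusted p up to 0.117 and 0.268). Other settings gave 1 to 2. Tm in each of the 4 mutants left 0 of the 10 called by edgeR. Of all genes, 11.6% were called in bzip17/28, 2.42% in bzip28/60, 3.20% in bzip17/60 and 3.60% in s1p/s2p.

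The indole branch, which makes the other main glucosinolates from tryptophan, had 11 of 14 genes tested. After DTT, 6 rose and 1 fell, with 8.93% of all genes higher and 7.02% lower, and a median log2 difference of 0.86. MYB51, a regulator of that branch, averaged 90.8 ± 3.76 CPM after DTT and 19.4 ± 4.31 CPM in WT mock (log2 2.23 ± 0.23, edgeR adjusted p = 4.33e-10). SOT16, its sulfotransferase, rose by 1.66 ± 0.21 (edgeR adjusted p = 5.02e-08), and IGMT1, which methylates indole products, by 2.46 ± 0.20 (edgeR adjusted p = 4.53e-13). BCAT4 and CYP83A1 fell in the same libraries. In bzip17/28 mock against bzip28/60 mock, 6 of the 11 were higher and 0 lower, with 7.85% of all genes higher. SOT16 was at 506 ± 41.0 CPM in bzip17/28 and 217 ± 44.2 CPM in bzip28/60. The shared core genes UGT74B1 and GGP1 were higher there too, by 1.10 ± 0.14 and 1.79 ± 0.23 (edgeR adjusted p = 1.17e-07 and 2.44e-07), as were 4 of 4 tested genes of sulfate activation, with APK at 66.8 ± 11.1 CPM in bzip17/28 and 24.2 ± 7.10 CPM in bzip28/60. The higher levels in bzip17/28 therefore included genes outside the aliphatic branch.

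Genes known to mark sulfur limitation were measured because ATSDI1, a repressor of aliphatic synthesis under sulfur limitation, is one of them. After AZC, 5 of 5 tested rose, with 3.28% of all genes higher and a median log2 difference of 2.60. The 7 genes of the list summed to 675 to 783 CPM after AZC, against 170 to 232 CPM in WT mock. ATSDI1 averaged 166 ± 29.5 CPM after AZC and 21.9 ± 4.68 CPM in mock (log2 2.91 ± 0.46, edgeR adjusted p = 1.19e-05). In bzip17/28 mock 4 of 5 were also higher than in WT mock, with 9.14% of all genes higher. ATSDI1, chosen here after its values were seen, was at 75.5 ± 13.2 CPM (log2 1.77 ± 0.47, edgeR adjusted p = 0.00594), beside higher CYP79F1 and SOT18. After DTT 2 fell and 0 rose by edgeR, with 7.02% of all genes lower. In s1p/s2p mock 4 of 5 were higher than in WT mock, in bzip17/60 mock 2 and in bzip28/60 mock 0. Of all genes, 7.39%, 8.31% and 5.35% were called there. After Tm, 1 fell in WT and 3 in bzip17/28, 3 rose in bzip17/60, and 0 were called in bzip28/60 and s1p/s2p. Without 1 library the calls were 3 to 4 in s1p/s2p mock and 0 to 2 in bzip17/60 mock. They were 0 to 1 after Tm in WT and 0 to 4 after Tm in bzip17/28 and in bzip17/60. The relation of this list to the aliphatic genes was not tested.

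**Figure D5:**
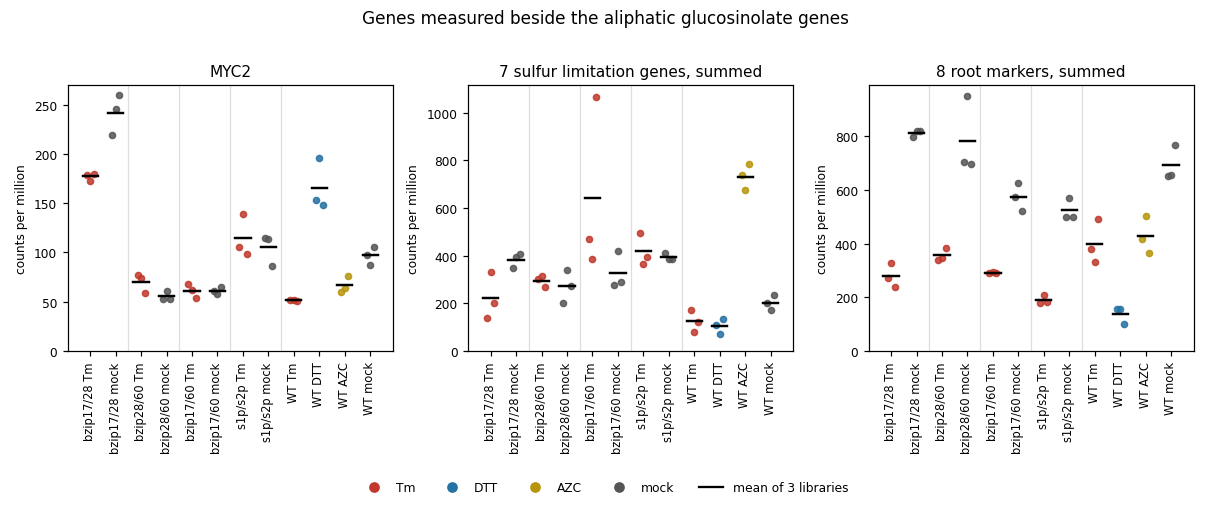
CPM of MYC2, of 7 sulfur limitation genes summed and of 8 root marker genes summed in each of the 36 libraries; points are libraries and bars are means of 3 libraries. MYC2 averages 242 CPM in bzip17/28 mock and 55.5 CPM in bzip28/60 mock, and root markers sum to 99.4 to 157 CPM in WT DTT. Most of the root marker sum in WT mock is PYK10, at 571 CPM of a mean sum of 693 CPM.

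Some genes outside the lists followed the mean pattern of the 6 tested genes over the 12 group means. Among 10474 candidates, the highest Pearson correlations were 0.94 for AT5G61890, 0.93 for AT1G72070, 0.92 for OCT6, 0.91 for MBP1 and SPX3, 0.90 for RNS1, 0.89 for AT2G17740 and 0.88 for AT4G18440, TSBtype2 and PMSR2. MBP1 is a myrosinase-binding protein, and myrosinases break glucosinolates down. The points share libraries and the high bzip17/28 groups, so these are descriptions of 12 means. GSTF11, a core pathway glutathione transferase, stood at rank 44 with 0.82, and MYC2 at rank 65 with 0.79. MYC3 and MYC4 stood at ranks 4965 and 6995, with 0.03 and -0.18.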

How the data were processed

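RNA of whole seedlings was sequenced from the 3' end, per the labels' protocols. The authors deposited raw HTSeq counts per transcript model (58699 models) for each of 36 libraries. HTSeq 0.6.0, TopHat2 2.1.1, Trim Galore 0.2.8 and SAMtools are named, per the submitters' processing notes. Genome build, annotation release and strand setting are not given in the sources used here. Reads shared by models of a locus were counted as ambiguous (39.9 to 42.8% of assigned and ambiguous reads), which undercounts genes with several models. Reads on no feature (2.69 to 6.32%) and ambiguous reads stayed out of library sizes and tests. Such reads were 3.24 to 6.32% in WT libraries and 2.69 to 3.48% in mutant libraries for no feature.

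Counts were summed over the models of each locus. edgeR 4.0.16 in R 4.3.3 fitted all 36 libraries with 1 mean per group (24 residual degrees of freedom, TMM factors 0.925 to 1.09, filterByExpr with a minimum count of 10). The 10480 genes kept were tested with the quasi-likelihood F-test, adjusted by Benjamini-Hochberg over all of them, with a threshold of 0.05. CPM were scaled with TMM. Fold changes came from the fit. The test was checked on simulated data in which all genes and groups were given the same spread. That check does not cover the wide spread of the WT Tm libraries. Alternatives were DESeq2 1.42.0, limma 3.58.1 and those in the closing section, with each library left out in turn. Repeat pairs differed beyond counting noise (chi-square over degrees of freedom 1.5 to 12.1), and 0 of 36 pairs were identical. Repeat numbers did not pair samples: in 0 of 17 comparisons did every same-numbered pair correlate over 0.1 (r -0.15 to 0.20).

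The 9 genes and all lists were chosen with earlier results of these data known, so lists are described by counts and medians without a test of their own. Named genes were the 9 members, up to 3 genes per list and comparison with the lowest adjusted p, and the 10 genes of most like pattern. Names come from the RefSeq table, which held 37051 of the 37336 loci. The promoter windows come from the RefSeq TAIR10.1 genome, and no coordinate of the count tables was used with it. BCAT4 overlaps AT3G19700 on the other strand and SOT18 overlaps AT1G74088 on the same strand, so their counts may hold reads of those genes.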

Additional observations from a re-analysis of the deposited data

Results flagged for a closer look

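The Tm response differed between a mutant and WT in 14 cases among the 9 genes, their regulators, the other aliphatic genes and the shared core, by the edgeR test of the difference itself. Each difference is given as the mutant response minus the WT response on the log2 scale, and all rest on the same WT libraries. SOT17, described above, differed by 1.13 in bzip28/60 and 1.13 in bzip17/60. MYC2 differed by 1.25 in bzip28/60 (edgeR adjusted p = 0.000271), 0.92 in bzip17/60 (edgeR adjusted p = 0.0154) and 1.06 in s1p/s2p (edgeR adjusted p = 0.00566). IPMI2 differed by 1.08 in bzip17/28, 1.02 in bzip28/60 and 1.12 in bzip17/60 (edgeR adjusted p = 0.0110, 0.0222 and 0.0158). UGT74B1, a glucosyltransferase of the shared core, differed by 0.77 in bzip17/28, 0.93 in bzip28/60, 1.26 in bzip17/60 and 1.08 in s1p/s2p (edgeR adjusted p = 0.0260, 0.00838, 0.000528 and 0.00483). AT2G31790 differed by 0.82 in bzip28/60 (edgeR adjusted p = 0.0260) and GSTU20 by 1.17 in bzip17/60 (edgeR adjusted p = 0.0379). Of the 14, MYC2 in bzip28/60 and UGT74B1 in bzip17/60, 2 in all, were called in every setting and without each library in turn. The other 12 were lost when only their own libraries were fitted and with limma weights per group. Without 1 library, MYC2 and UGT74B1 kept their calls except UGT74B1 in bzip17/28, which was lost without any 1 of 6 libraries (edgeR adjusted p up to 0.0958). IPMI2 was lost without repeat 3 of WT mock in all 3 mutants and, in bzip28/60, also without repeat 2 of WT Tm or repeat 1 of its mock or Tm group. AT2G31790 was lost without any 1 of 7 libraries and GSTU20 without any 1 of 6, repeat 2 of WT Tm among them for both (edgeR adjusted p up to 0.0865 and 0.0978). Over all genes, 4.14% were called in bzip17/28, 4.26% in bzip28/60, 3.79% in bzip17/60 and 1.90% in s1p/s2p. In each of the 14 the response in the mutant was less negative, or more positive, than in WT.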

How the results depend on the processing

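No member value called in the main fit or in an alternative changed sign between them. The signs of values called in neither were not compared. Leaving out FMO GS-OX1 against bzip17/28 mock, 27 member values were called: 19 stayed called in all 8 settings, 14 without each library in turn and 13 in both. Of 97 member values not called, 7 were called in some setting and 5 without some library. Counts of members called, FMO GS-OX1 included, moved as follows. Tm in WT gave 3, but 1 with its own libraries fitted alone, 0 with limma weights per group and 1 to 3 without a library. AZC in WT gave 0 to 3 without a library. Tm against DTT gave 1 with its own libraries and 1 with limma. Tm against AZC gave 1 with library size alone, 1 with no filter and 0 to 1 without a library. DTT against AZC gave 2 with no filter and 2 with its own libraries. Tm in bzip17/28 gave 1 with no filter, 2 with its own libraries and 2 with limma, and Tm in bzip17/60 gave 1 with no filter. Tm in s1p/s2p gave 0 to 1 without a library. Against WT mock, bzip17/28 gave 1 with DESeq2, 3 with library size alone, 3 with no filter and 1 to 3 without a library. bzip28/60 and bzip17/60 gave 1 to 2 each without a library, and bzip28/60 gave 3 with limma. s1p/s2p against bzip17/28 gave 0 with DESeq2. Without a library it gave 0 to 2, of which FMO GS-OX1 is a description only. The response differences gave 0 with their own libraries and 0 with limma for both bzip28/60 and bzip17/60, and 0 to 2 and 0 to 1 without a library. The causes were not tested. Library size alone shifted the median of all genes by 0.109 for bzip17/28 against WT mock and 0.103 for Tm in bzip17/60 on the log2 scale. The repeat numbers did not pair the samples, and the replicate block changed no call. Tm in WT kept 3 members called, and bzip17/28 against bzip28/60 kept 5 without FMO GS-OX1. Low counts limit CYP79F1 and FMO GS-OX1.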

Other observations

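Transport and breakdown genes were measured too. GTR1, a glucosinolate transporter, averaged 84.1 ± 16.5 CPM in bzip17/28 mock, 39.3 ± 4.13 CPM in bzip28/60 mock and 37.4 ± 10.1 CPM in WT mock (SD, n = 3 each). It was higher in bzip17/28 than in bzip28/60 by 1.10 ± 0.18 on the log2 scale (edgeR adjusted p = 1.31e-05). Of 9 breakdown genes, 4 were tested. NSP5, which directs glucosinolate breakdown towards nitriles, averaged 2667 ± 158 CPM in bzip17/28 mock and 1229 ± 108 CPM in bzip28/60 mock (log2 1.12 ± 0.21, edgeR adjusted p = 9.62e-05). TGG1, a myrosinase, averaged 63.9 ± 47.8 CPM after Tm and 27.5 ± 3.09 CPM in WT mock (log2 1.18 ± 0.32, edgeR adjusted p = 0.00777), with a wide spread among the Tm libraries. The TGG1 call was lost without repeat 2 of WT Tm (log2 0.40, edgeR adjusted p = 0.427), with only its own libraries fitted and with limma weights per group (adjusted p up to 0.132).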
